A study of Mus musculus with 9 samples.

Results

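Gene deserts are long stretches of a chromosome that hold no protein-coding gene. Here they were taken from the mouse autosomes by distance alone: a window of the GpC methylation table on chromosomes 1 to 19 was called a desert window where its centre lay 500 kb or more from the nearest protein-coding gene body of GENCODE M21 on mm10. Of 786533 autosomal windows with a value in all 9 libraries, 49061 (6.24%) met this rule and covered 200 Mb. They were compared with 188899 intergenic windows (24.0%) centred under 50 kb from a gene, called near-gene windows below. The cells were female FVB/CAST F1 mouse embryonic stem cells, grown in 2i and then weaned into differentiation medium. They were collected at day 0, and at days 4, 5, 6 and 7 after an shRNA was delivered by virus at day 2 and puromycin was applied at day 3. The shRNA was either a nonsilencing control (Nons) or one against Smarcc1, which encodes a scaffold protein of the BAF remodeller. Each condition and day gave 1 library, so a library, its day and its arm cannot be told apart, and no value below carries a replicate error. The table holds no expression values, so neither the cell type nor the knockdown was checked in these cells.

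Deserts lie mostly in AT-rich chromatin that replicates late and sits at the nuclear lamina in many cell types, and some of them contain distant enhancers of developmental genes. NOMe-seq treats fixed nuclei with a methyltransferase that acts on GpC sites. DNA wrapped on a nucleosome is largely protected and open DNA is methylated, so a higher percentage of GpC methylation means more accessible chromatin. The table gives the percentage in windows of 200 read positions, with both alleles merged and without scaling between libraries. It gives no number of reads per window, so the depth behind each percentage is unknown. The spread quoted below as SD over autosomes is the SD of the 19 chromosome values within a library, which describes variation along the genome and not between cultures.

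The desert windows formed 251 blocks with no protein-coding gene nearby, of which 26 were longer than 2 Mb. The longest spanned 3.67 Mb on chromosome 8 (chr8:49344295-53010245) between Tenm3, a cell adhesion receptor of neurons, and Aga, a lysosomal enzyme. A block of 3.52 Mb on chromosome 18 is counted but not described. Other long blocks lay on chromosome 14, between the protocadherins Pcdh20 and Pcdh9 (3.54 Mb) and between Olfm4 and Pcdh17 (3.42 Mb). Chromosome 1 held long blocks between Cntnap5b and the cadherin Cdh20 (3.28 Mb), between the zinc transporter Slc39a10 and Tmeff2 (3.01 Mb), and between Dsel and Cntnap5a (2.82 Mb). Others lay between Sel1l and Flrt2 on chromosome 12 (2.84 Mb), between the transcription factor Zeb2 and the activin receptor Acvr2a on chromosome 2 (2.70 Mb), and on chromosome 5 between Pcdh7 and G6pd2 (2.68 Mb) and between Igfbp7 and the latrophilin Adgrl3 (2.61 Mb). Desert windows made up 11.4% of the windows of chromosome 12 and 1.92% of those of chromosome 19.

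The rule leaves deserts that are not free of genes. The starts of 332 lncRNA genes, 753 pseudogenes and 76 miRNA genes fell in desert windows. So did 140 of the 218 autosomal immunoglobulin V segments and 66 of the 144 T cell receptor V segments, which GENCODE does not class as protein-coding. In all, 907 desert windows (1.85%) lay under 50 kb from an antigen receptor segment, 511 of them at the kappa light chain locus on chromosome 6, 289 at the heavy chain locus on chromosome 12 and 107 at the T cell receptor alpha locus on chromosome 14. These loci are assembled by recombination in lymphocytes. Their windows had a lower median than the other desert windows in 9 of 9 libraries, by between 0.102 percentage points in the Nons day 5 library (20.7% against 20.8%) and 1.17 in the Nons day 6 library (9.09% against 10.3%). The chromosome 6 and chromosome 12 loci were lower in 9 of 9 libraries, and the chromosome 14 locus in 4 of 9. Comparisons below include these windows, and without them the mean difference between deserts and near-gene windows was -0.432 percentage points in place of -0.439.

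Desert windows were poorer in the GpC sites on which the assay rests. Their median GC content was 37.4%, against 43.8% near genes and 40.7% in the bodies of long genes. The GpC cytosines outside CpG that the assay reads stood at a median of 62.4 per kb in deserts and 85.5 per kb near genes. Because a window holds a fixed number of read positions, a desert window was longer, with a median of 3921 bp against 2682 bp. CpG sites were rarer in deserts too, at 4.29 per kb against 8.43 per kb. Repeats covered a median of 33.6% of a desert window and 28.8% of a near-gene window.

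The sequences below, from the mm10 RefSeq assembly and on its forward strand, come from desert windows that stood far above the desert median and differ widely in GpC content. Each is the central 300 bases of its window, with every GpC in capitals. The upper is from the window that holds the start of the lncRNA gene Gm5953, and was added after its values were seen. The lower is from the window with the highest GpC methylation of all deserts.

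Gm5953 start window, chr12:19288578-19288877: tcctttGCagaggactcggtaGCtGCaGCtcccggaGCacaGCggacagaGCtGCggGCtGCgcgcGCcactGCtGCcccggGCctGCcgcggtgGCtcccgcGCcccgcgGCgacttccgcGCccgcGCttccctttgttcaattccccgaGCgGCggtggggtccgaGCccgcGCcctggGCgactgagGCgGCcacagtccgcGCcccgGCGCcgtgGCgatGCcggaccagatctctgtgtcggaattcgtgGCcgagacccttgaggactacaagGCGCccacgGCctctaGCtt
Highest desert window, chr12:97061316-97061615: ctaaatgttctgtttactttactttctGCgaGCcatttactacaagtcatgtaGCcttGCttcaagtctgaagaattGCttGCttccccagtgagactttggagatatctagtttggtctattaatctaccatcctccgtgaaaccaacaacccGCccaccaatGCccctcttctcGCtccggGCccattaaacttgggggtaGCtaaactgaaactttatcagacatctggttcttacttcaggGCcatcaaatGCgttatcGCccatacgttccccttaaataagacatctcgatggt

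The Gm5953 stretch held 46 GpC dinucleotides and 39 CpG at a GC content of 72.0%. The stretch from the highest window held 14 GpC and 9 CpG at 44.7% GC. That window shared 364 bases with the mitochondrial genome, as described below. How many of them lie in the printed stretch was not computed, so it may not be typical desert sequence. Neither stretch was repeat-masked in any part.

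GpC methylation of deserts followed the level of each library. The median over desert windows was 10.96% at day 0. In the Nons libraries it read 14.04%, 20.8%, 10.3% and 6.06% on days 4, 5, 6 and 7, and in the Smarcc1 knockdown libraries 11.1%, 20.3%, 11.6% and 6.38%. The SD over autosomes lay between 0.188 and 0.318 percentage points in these libraries. Single windows scattered far more, with an SD over desert windows of 3.87 to 9.25 percentage points. Against day 0, the paired change per desert window had a median of 9.68 percentage points at Nons day 5 and 9.24 at knockdown day 5, and of -4.73 and -4.33 at day 7. Near-gene windows moved by 10.02 and 8.81 points at day 5 and by -4.80 and -4.06 at day 7, so the swing of the libraries over the days was not particular to deserts.

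**Figure D1:**
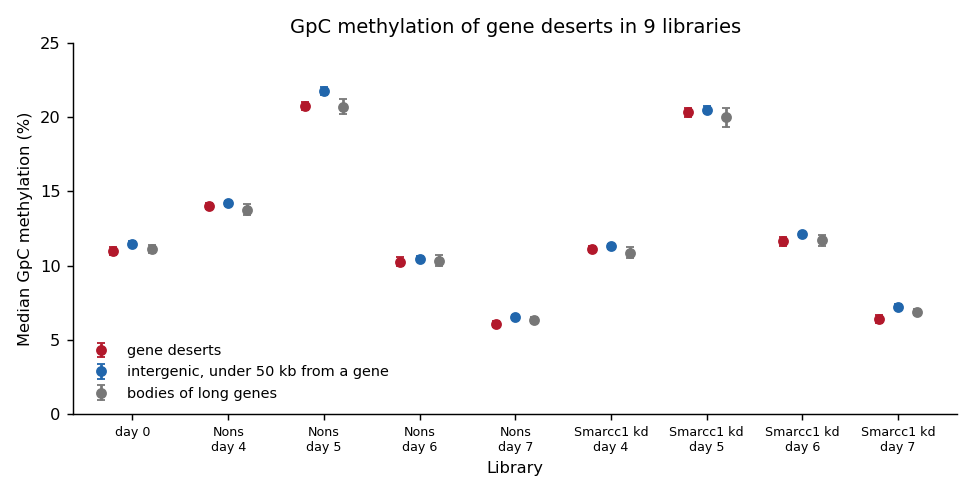
Median GpC methylation (%) of gene deserts, near-gene intergenic windows and bodies of long genes in each of the 9 libraries, with bars for the SD over 19 autosomes. The day 5 libraries are the highest (20.8% and 20.3% in deserts) and the day 7 libraries the lowest (6.06% and 6.38%), and the desert point lies below the near-gene point in all 9.

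Deserts had lower GpC methylation than near-gene windows in 9 of 9 libraries. The medians were 10.96% and 11.5% at day 0, a difference of -0.499 percentage points. The Nons libraries of days 4, 5, 6 and 7 gave -0.154, -1.003, -0.191 and -0.433. The knockdown libraries of the same days gave -0.179, -0.174, -0.469 and -0.846. The mean was -0.439 ± 0.310 (SD over 9 libraries), and a sign-flip permutation test over libraries, exact and two-sided, gave p = 0.0039, the smallest it can give, or 0.0234 after Benjamini-Hochberg adjustment over the 6 tests of this kind. The libraries share the same windows, so this p speaks only for the sign across libraries. The difference exceeded the SD over autosomes of the same library in 5 of 9 cases and was below it in Nons days 4 and 6 and knockdown days 4 and 5. All 19 autosomes were lower in deserts at Nons day 5 and at knockdown day 7. The size of the mean depended on how the classes were drawn. It was -0.222 with 7 of 9 libraries below 0 where lncRNA genes also ended a desert, and -0.299 with 7 of 9 for windows that touched no gene body. It was -0.281 with 6 of 9 for near-gene windows without a gene start, a choice made after the data were seen. As means over windows it was -0.698, and with each block counted once -0.802.

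Since deserts differ from near-gene windows in GC and window length, the difference was also taken among windows of like composition. Within 20 strata of GC content it stayed below 0 in 9 of 9 libraries, from -0.178 at Nons day 4 to -0.469 at knockdown day 7, with a mean of -0.359 (p = 0.0039, exact sign-flip permutation test). Within 20 strata of window length it was smaller. It had a mean of -0.0807, was above 0 at Nons days 4 (0.107) and 6 (0.0593), and missed the threshold (p = 0.13, exact sign-flip permutation test). Within 10 by 10 strata of GC and length together, a choice made after these values were seen, it was below 0 in all 9 libraries, between -0.0885 and -0.388, with a mean of -0.265. Window length depends on GpC density and on how well a window was covered.

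**Figure D2:**
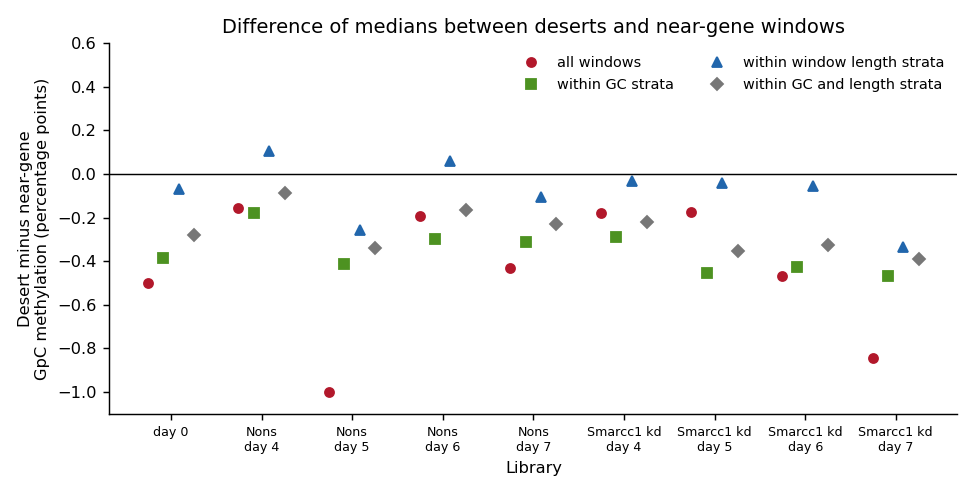
Desert minus near-gene median GpC methylation (percentage points) in each library, over all windows, within strata of GC, within strata of window length, and within both. Points within GC strata lie between -0.178 and -0.469, while those within length strata scatter around 0 with a mean of -0.0807.

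The difference did not grow steadily with distance from genes. Relative to the autosomal median of its library, the median was 1.05 in windows up to 10 kb from a gene, averaged over the 9 libraries. It fell to 0.958 at 200 to 400 kb and was then higher again, at 0.966 for 500 to 600 kb and 0.987 for 1000 to 1500 kb. Windows just outside the rule, at 400 to 500 kb, had 0.963, so no step was seen at the 500 kb limit. Against all intergenic windows 50 to 500 kb from a gene, deserts were higher in 7 of 9 libraries, with a mean difference of 0.199 percentage points (p = 0.0625, exact sign-flip permutation test). The libraries diverged with distance: at 1000 to 1500 kb they ran from 0.903 at knockdown day 7 to 1.03, and at 0 to 10 kb from 1.04 to 1.06. GC content fell over the same range, from 44.6% in windows up to 10 kb from a gene to 36.8% at 1000 to 1500 kb.

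**Figure D3:**
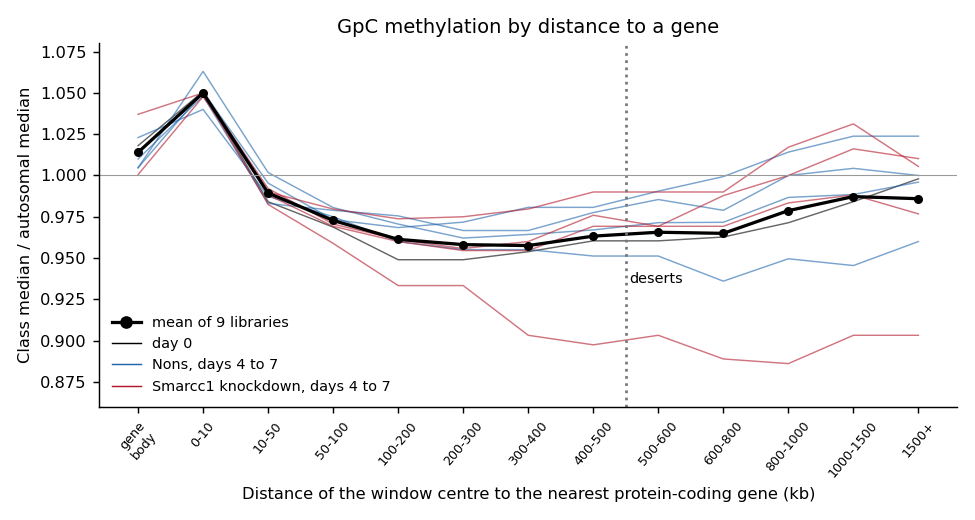
Median GpC methylation of windows by distance to the nearest protein-coding gene, divided by the autosomal median of the same library, for 9 libraries (thin lines) and their mean (thick line). The mean falls from 1.05 beside genes to 0.958 at 200 to 400 kb and reaches 0.987 at 1000 to 1500 kb, inside the deserts.

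Within deserts the level fell with GC throughout, while near genes it did not. Desert windows under 35% GC, 9623 of them, stood at 1.04 times the autosomal median on average over libraries, and the level fell with each step of GC to 0.874 in the 2702 windows of 43% GC or more. Near-gene windows of the same classes stood at 1.04 and 1.04, with 0.982 between them at 39 to 41% GC. Under 35% GC the difference between deserts and near-gene windows was therefore close to 0, with a mean of 0.0329 ± 0.136 percentage points (SD over 9 libraries). It was -0.520 ± 0.162 at 39 to 41% and -1.89 ± 0.487 at 43% or more, where the 9 libraries ran from -1.25 to -2.98. The groups were thus alike in the lowest class of GC and farthest apart in the highest. The highest class has no upper limit and held 108420 near-gene windows, including those with a gene start. The 95th percentile of GC was 43.2% in deserts and 51.8% near genes, so the groups were not matched in GC there. In the bounded class of 41 to 43% the mean was -0.915 ± 0.167.

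**Figure D4:**
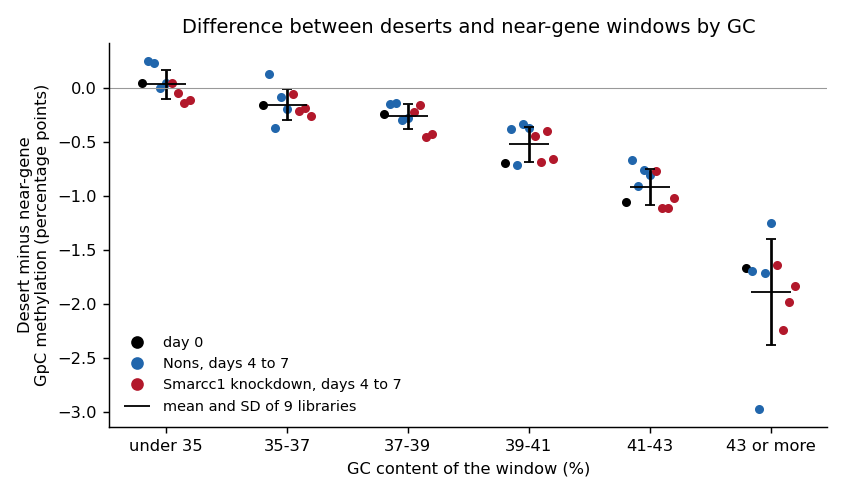
Desert minus near-gene median GpC methylation (percentage points) in 6 classes of window GC content, 1 point per library, with the mean and SD of 9 libraries. The mean goes from 0.0329 under 35% GC to -1.89 at 43% or more.

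The bodies of long genes, those of 500 kb or more, served as a further reference, since they are also AT-rich and far from most promoters. The 218 such genes held 58506 windows. Their difference from deserts was smaller than the spread between libraries, with a mean of -0.0111 ± 0.270 percentage points (SD, 9 libraries), 4 libraries above 0 and 5 below, and p = 0.91 (exact sign-flip permutation test). The single differences ran from -0.466 at knockdown day 7 to 0.339 at knockdown day 5. Long genes were richer in GC, and among windows of like GC deserts were lower in 9 of 9 libraries, with a mean of -0.313 (p = 0.0039, exact sign-flip permutation test). Within strata of window length the mean was -0.259 with the same p.

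Few desert windows were strongly accessible. A relative level was computed for each window as its percentage divided by the autosomal median of the library, averaged over the 9 libraries. Of 49061 desert windows, 7 (0.0143%) reached a relative level of 2 or more, against 1.33% near genes, 0.253% in the bodies of long genes and 0.803% of all autosomal windows. The lower end was more alike: 0.0530% of desert windows and 0.0773% of near-gene windows were at 0.5 or less. The 99th percentile of the relative level was 1.51 in deserts and 2.09 near genes. Window values repeated poorly between libraries. The median Pearson correlation over the 36 pairs of libraries was 0.0349 across desert windows and 0.154 across near-gene windows, which is a description across windows that share libraries and base composition.

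The highest desert window was chr12:97059132-97063801, in intergenic sequence 1141 kb from Galc, the lysosomal galactosylceramidase. It read 66.7% at day 0, 81.7%, 69.9%, 73.7% and 61.6% for Nons over days 4 to 7, and 76.5%, 68.2%, 72.7% and 58.8% for the knockdown. No library came near the desert median. This window shared 364 bases with the mitochondrial genome in exact runs of 31 bases or more, and 33.4% of its 31-base runs occurred elsewhere in the assembly. The 4 windows of the table on the mitochondrial chromosome, which carries no nucleosomes, had means between 73.6% and 86.8% in the 9 libraries. The second window, chr4:80002789-80007534, lay 829 kb from Tyrp1 and overlapped the pseudogenes Gm11407, Gm11408 and Gm11410. It shared 886 bases (19%) with the mitochondrial genome and read from 24.0% to 66.9%. Among all desert windows 10 shared any such run, 3 shared 100 bases or more, and 2 of those 3 were the windows named here. The part of mitochondrial reads in these values was not tested.

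The third highest window, chr12:19288010-19289447, was the GC-rich start of Gm5953 (67.2% GC, 84.1 CpG per kb). It read 17.2% at day 0, 38.8%, 53.4%, 31.2% and 24.3% in the Nons libraries and 45%, 40.95%, 36.8% and 32.7% in the knockdown libraries, above the desert median of the library in all 9. Of its 31-base runs 64.1% had another copy in the assembly, at a median of 2 occurrences, so its value is uncertain. The next windows in order, chr6:69017846-69024215 and chr6:79277225-79286277, were 98.0% and 93.1% repeat-masked. They had 97.3% and 79.9% of their runs elsewhere, at medians of 3995 and 2937 occurrences. Each of the 5 highest desert windows thus held sequence with other copies in the genome. The share over all desert windows was not computed, so this is not shown to be particular to high windows. Among desert windows picked by other rules, the share of such runs went from 0% at chr8:50915787-50917871 to 82.0% at chr1:113721072-113726943.

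Desert windows that held the start of an lncRNA gene numbered 326. Their median exceeded that of the other desert windows in 7 of 9 libraries, by 0.398 ± 0.632 percentage points on average (SD, 9 libraries). An exact sign-flip permutation test gave p = 0.066, or 0.199 after Benjamini-Hochberg adjustment over the 6 tests of this kind. The median was lower in the knockdown libraries of days 4 (-0.145) and 5 (-0.339). These windows were slightly richer in GC, at 38.8% against 37.4%, and GC went with lower levels in deserts. Within GC strata they were higher in 9 of 9 libraries, from 0.223 at Nons day 4 to 2.05 at Nons day 5, with a mean of 0.680. The p was 0.0039 without adjustment (exact sign-flip permutation test). The 9 libraries share the same 326 windows, so it speaks only for the sign across libraries. Of means in place of medians the difference was 0.545, again above 0 in 9 of 9. After Gm5953, the highest starts were those of C330004P14Rik on chromosome 10 (mean relative level 2.03), C130073E24Rik on chromosome 8 (1.92), Gm26700 on chromosome 10 (1.75) and 9330185C12Rik on chromosome 1 (1.64). C130073E24Rik started 2073 kb from Tenm3, within the longest block. Its window read 8.70% at day 0, 24.1%, 31.7%, 30.8% and 12.5% in the Nons libraries and 32.4%, 35.2%, 16.3% and 16.7% in the knockdown libraries, so only day 0 lay below the desert median of its library. The Gm26700 window also overlapped Rmst, an lncRNA known from neural differentiation, and read 34.2% at day 0, 36.4%, 40.5%, 24.4% and 7.95% in the Nons libraries and 8.41%, 31.5%, 19.4% and 4.44% in the knockdown libraries. Only the knockdown libraries of days 4 and 7 lay below the desert median of their library (11.1% and 6.38%). At Nons day 7 the window lay above that median (6.06%).

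Whole blocks were also compared by their means, which must spread less than single windows since each averages many of them. The 152 blocks of 100 windows or more held 91.2% of the desert windows. Their mean relative level, here the block mean divided by the autosomal median, ran from 0.866 to 1.10 around a median of 1.03, with an SD of 0.0379. Between libraries the levels of these blocks correlated with a median r of 0.464 over 36 pairs, from 0.225 to 0.607, given as a description. The highest blocks lay between Slc8a1, a sodium-calcium exchanger, and Pkdcc on chromosome 17 (1.10), between Lrfn5 and Fscb on chromosome 12 (1.10) and between Cox7c and Edil3 on chromosome 13 (1.081). The lowest was chr12:21920218-23276073 between Ywhaq, a 14-3-3 protein, and Gm10330, at 0.866, with a range over libraries of 0.772 to 0.940. It was also unlike other deserts in its GC content of 45.6%. The next lowest lay between Auts2 and Castor2 on chromosome 5 (0.906, GC 42.4%) and between Gfra2 and Gm9195 on chromosome 14 (0.921, GC 41.3%).

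The knockdown libraries differed from the Nons libraries in no direction that held over the days. The median of the paired difference, knockdown minus Nons, in desert windows was -2.90 ± 0.184 percentage points at day 4 and -0.468 ± 0.277 at day 5, then 1.37 ± 0.228 at day 6 and 0.334 ± 0.238 at day 7 (SD over 19 autosomes). The mean over days was -0.415 (p = 0.75, exact sign-flip permutation test), and with 4 days this test cannot go below 0.13. The near-gene windows moved alike, by -2.87, -1.30, 1.58 and 0.697. After subtraction of the near-gene value, deserts differed by -0.0236, 0.830, -0.213 and -0.362, with a mean of 0.0579 (p = 1.00, exact sign-flip permutation test). The day 5 value was above 0 on 19 of 19 autosomes, with an SD of 0.294, but among windows of like GC it was 0.0239. Centring each library on its autosomal median turned the sign of the desert difference on 3 days, to 0.542 at day 5, -0.192 at day 6 and -0.398 at day 7.

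No desert window passed limma's moderated test for a knockdown effect shared by the 4 days after Benjamini-Hochberg adjustment, and none did among all 829493 windows of the autosomes and the X (0%). At an unadjusted p under 0.05 there were 2037 desert windows, 4.15% of them, against 4.23% of all windows. In desert windows the knockdown value was above the Nons value on all 4 days in 2312 (4.71%) and below it in 3317 (6.76%), against 4.95% and 6.82% of all autosomal windows. The largest mean rise among the former was at chr8:42356633-42362350, 770 kb from Triml1. Its Nons values were 13.1%, 4.00%, 13.9% and 0% over days 4 to 7 and its knockdown values 28.6%, 50.8%, 19.4% and 6.06%. The largest mean fall was at chr12:115507821-115515232, which holds the heavy chain segment Ighv1-64. There the Nons libraries read 12.9%, 47.1%, 26.9% and 7.14% and the knockdown libraries 9.52%, 4.08%, 0% and 6.90%. The second largest fall was at the start of 9330185C12Rik, from 39.8%, 41.7%, 33.3% and 8.54% to 18.1%, 23.3%, 11.8% and 0%. Of their 31-base runs, 47.1% at the chromosome 8 window, 71.1% at Ighv1-64 and 28.8% at 9330185C12Rik occurred elsewhere in the assembly, so these values are uncertain too. The windows were chosen by this very difference and are given without a test.

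In bins of 1 Mb the noise of single windows averages out. Of 2565 bins, 167 were desert bins, with 50% or more of their windows in deserts. For the knockdown term no desert bin passed limma's test after Benjamini-Hochberg adjustment, and no bin did in all (0%). The lowest adjusted p in a desert bin was 0.575, and 17 desert bins (10.2%) had an unadjusted p under 0.05, against 5.96% of all bins. That lowest value belonged to chr16:80000001-81000000, with a log2 difference of -0.14 ± 0.03 (SE). Its level relative to the autosomal mean of the library was 1.04, 1.03, 1.05 and 1.02 in the Nons libraries and 0.980, 1.02, 0.914 and 0.847 in the knockdown libraries. The knockdown libraries were below the Nons libraries on all 4 days, but by little at day 5.

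Between days most desert bins moved in the same direction, and their median was lowest at day 7. Relative to the autosomal mean of the same library, the median desert bin stood at 0.999 and 0.989 in the Nons libraries of days 4 and 5, and at 0.981 and 0.935 at days 6 and 7. In the knockdown libraries it stood at 0.994 and 1.01, then at 0.976 and 0.900. The median of the other autosomal bins stayed between 0.996 and 1.01 in these 8 libraries. At day 0 the median desert bin stood at 0.960, below the days 4 and 5. Limma's fit compared days 6 and 7 with days 4 and 5, with the arm as a block. The days of each period stood in place of replicates, which they are not. In that fit 154 of 167 desert bins had a negative term, against 940 of 2237 other autosomal bins. The median log2 change was -0.07 in desert bins and 0.01 in the other autosomal bins. After Benjamini-Hochberg adjustment 19 desert bins (11.4%) were lower and 0 higher. Of all bins, those of the X included, 4.52% were called in either direction, and 3.9% were called as lower. Among the 2237 other autosomal bins 56 (2.50%) were called as lower and 16 as higher. These were not spread evenly: on chromosome 7, 17 of the 136 bins outside deserts were called as lower. The changes of the 19 desert bins ran from -0.30 to -0.12 on the log2 scale. AT-rich bins outside deserts moved likewise. Of 163 other autosomal bins with a GC content within the quartiles of the desert bins, 142 had a negative term. Among them 13 (7.98%) were called as lower and 0 as higher. The median log2 change of the 163 bins was -0.05.

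The count of called desert bins changed with the days used. Without day 4 no desert bin was called, and 1 of all 2565 bins. Without day 5 there were 2 desert bins among 14 called in all, and without day 7 there were 8 (1 of them higher) among 67. Without day 6 there were 95, all lower, among 611. The calls over all bins thus rose and fell with those of the deserts. The size of the change depended on the days too. Its median in desert bins was -0.03 on the log2 scale without day 7, with 42 of 167 bins above 0. It was -0.12 without day 6, with 6 bins above 0, and -0.08 and -0.07 without days 4 and 5. Days 4 and 5 also had higher library levels than days 6 and 7 in both arms, apart from the knockdown library of day 6, which lay above that of day 4. Library level and day cannot be told apart.

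Chromosome 12 held 8 of the 19 called desert bins among its 19 desert bins (42.1%), while 3 of its 98 other bins (3.06%) were lower. On the other autosomes 11 of 148 desert bins (7.43%) were called. The 5 lowest in adjusted p were all on chromosome 12. In chr12:19000001-20000000, which holds Gm5953, the relative level was 0.949 and 0.935 in the Nons libraries at days 4 and 5, and 0.789 and 0.745 at days 6 and 7. In the knockdown libraries it was 1.00 and 0.930, then 0.858 and 0.783. The change was -0.27 ± 0.04 on the log2 scale (SE, adjusted p = 0.00064, limma). Its SE rests on different days taken as replicates and not on replicate cultures. In each arm the late values lay below the early ones, but the bin was named for this very change. In chr12:22000001-23000000, within the lowest block, the change was -0.30 ± 0.05 (adjusted p = 0.0016, limma). The others were chr12:6000001-7000000 (-0.22 ± 0.03), chr12:114000001-115000000 at the heavy chain locus (-0.19 ± 0.03) and chr12:96000001-97000000 (-0.18 ± 0.04). The bins at 19 and 22 Mb had a GC content of 45.6% and 45.3%, far above the desert median. The bin at 96 Mb had 36.7%. Those at 19 and 22 Mb held 194 and 113 windows, and the called bin chr12:23000001-24000000 held 132 at 45.6% GC. The called bins from 114000001 to 116000000, at the heavy chain locus, held 202 and 191. The other called bins of the chromosome held 229 to 263, and those of other chromosomes 224 to 273. The share of 31-base runs with other copies was not computed for bins. Whether the count on chromosome 12 rests on its bins with few windows was not tested.

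**Figure D5:**
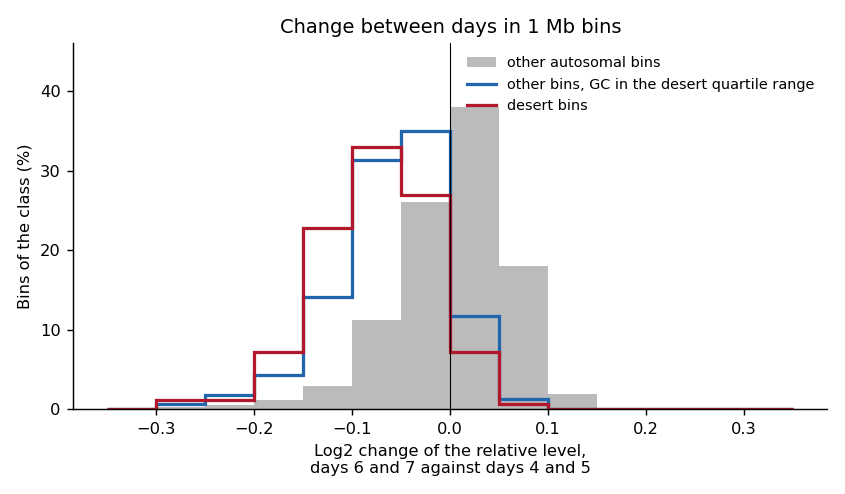
Distribution of the log2 change in relative level between days 6 and 7 and days 4 and 5 over 1 Mb bins, as the percentage of the bins of each class: 167 desert bins, 163 other autosomal bins of like GC content, and all 2237 other autosomal bins. Desert bins centre on -0.07 and bins of like GC on -0.05, while the other bins centre on 0.01.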

How the data were processed

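Per the labels and the study's methods, the authors trimmed NOMe-seq reads, aligned them with Bismark to an mm10 genome masked at FVB/NJ and CAST/EiJ variants, extracted GpC calls and quantified them in SeqMonk. The deposited values are the percent GpC methylation per window of 200 read positions, with alleles merged. The counts of calls behind them were not used here, so no value was weighted by depth and no counting interval could be made. Of 833044 autosomal and X windows, 829493 with a value in all 9 libraries were used. Distances came from GENCODE M21, and composition, repeats and 31-base runs from the RefSeq mm10 assembly. The members, gene classes and comparisons were chosen with earlier results of these data known. Windows, blocks, bins and starts named in the text are the longest, the highest and the lowest by rules set with the design. Those on chromosome 18 were counted but not named. Medians per class were compared by exact two-sided sign-flip permutation tests over 9 libraries or 4 days. Windows and 1 Mb bins with at least 50 windows were fitted with limma 3.58.1 in R 4.3.3, with day or arm as a block, at an adjusted p of 0.05. Bins were fitted on the log2 ratio of the bin mean to the library's autosomal bin mean. The days are not replicates, so the SE and p of these fits describe spread over days and not between cultures. Scripts were tested on simulated data. The sequence of a desert window of median GC is not reported here.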

Additional observations from a re-analysis of the deposited data

Results flagged for a closer look

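The difference between knockdown and Nons libraries in deserts changed sign over the days, and is listed because samples at different days moved in opposite directions. It was -2.90 percentage points at day 4 and -0.468 at day 5, and 1.37 at day 6 and 0.334 at day 7. After subtraction of the near-gene difference it was 0.830 at day 5 and below 0 on the other days, at -0.0236, -0.213 and -0.362. The differences between days were not tested, since each day has 1 library per arm.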

How the results depend on the processing

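The lower level of deserts against near-gene windows kept its sign and its side of the threshold in 16 of 19 alternatives and in 28 of 28 fits that left out a library or chromosome. Those 16 ran from -0.222 to -0.802 percentage points apart from the log2 ratio (-0.06), and those 28 from -0.474 to -0.368. It missed the threshold with deserts set at 1 Mb (-0.283) and within length strata (-0.0807), and was above 0 against intergenic windows 50 to 500 kb from a gene (0.199, with 0.148 at day 0, 0.191 at Nons day 5 and 0.199 at knockdown day 6). The cause was not tested. Against long gene bodies the sign was not stable: 0.0158 without windows at 0 or 100 percent, 0.145 with deserts set at 1 Mb and 0.0273 with lncRNA genes counted. It passed the threshold with deserts set at 250 kb (-0.142), within GC strata (-0.313) and within length strata (-0.259), and ran from -0.0549 to 0.0458 without 1 library or chromosome. The excess at lncRNA starts passed the threshold as means (0.545), in windows of 10 kb or less (0.436), with quantile normalization (0.361), within GC strata (0.680) and without receptor loci (0.454). It ran from 0.219 to 0.490 without 1 library. For knockdown minus Nons, leaving out a day gave -1.01 to 0.411, and relative to near-gene windows -0.200 to 0.198. That relative value fell below 0 with quantile normalization (-0.0224), as a log2 ratio (-0.0155), within GC strata (-0.0733) and within GC and length strata (-0.0683). Scaling turned the knockdown difference to 0.542, -0.192 and -0.398 at days 5, 6 and 7 when centred, and to 0.359, -0.139 and -0.291 with quantile normalization. It turned the change from day 0 to -0.239, 0.274 and 0.152 at Nons days 5, 6 and 7 when centred, and to 0.218 at Nons day 6 with quantile normalization. The 19 of 167 desert bins (11.4%) that were lower at days 6 and 7 became 6 of 60 (10%) with bins of 2 Mb, where fewer bins were tested. With bins of 500 kb they became 15 of 390 (3.85%), with 143 of all 5116 bins called. They became 5 of 167 (2.99%) on the percent scale, with 62 of all 2565 bins called, and 8 of 167 (4.79%) with medians, with 64 called in all. Without 1 day they were 0 to 95. Over all bins the split of higher against lower calls was 16 to 100, 26 to 36 on the percent scale and 35 to 93 with quantile normalization. Knockdown and Nons libraries were paired by day throughout. No block by replicate number was fitted, since each group has 1 library. Unknown depth limits any statement about single windows.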
